A study of Homo sapiens with 8 samples.

Results

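BTG1, BTG2, BTG3, TOB1 and TOB2 are the 5 genes of the BTG and TOB antiproliferative family considered here, chosen by their symbols among the 58302 genes of the count table. All 5 had enough counts to be among the 15712 genes tested. RNA came from HCT116 p53+/+ cells, an established human colon cancer line with wild-type p53, so every group represents a single line. In the MANIO group, 4 cultures were exposed to 1 µM of the compound MANIO, known here by its code name only, and were collected after 24 hours. In the DMSO group, 4 cultures were given the solvent DMSO and were collected after the same time. Both groups were grown in the same RPMI medium with serum, antibiotics and L-glutamine. The series text calls the 4 samples of a group biological replicates. The study used this comparison to look for a p53 response in the transcriptome.

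The proteins of this family share an amino-terminal BTG domain, through which they bind CNOT7 and CNOT8. These are among the nucleases of the CCR4-NOT complex, which shortens the poly(A) tails of messenger RNAs. They are known for slowing the passage of cells from G1 into S phase when overproduced. BTG2 is a long-established target gene of p53, BTG1 and BTG2 also bind the arginine methyltransferase PRMT1, and TOB1 and TOB2 carry motifs that bind cytoplasmic poly(A) binding protein.

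Total counts ranged from 27945196 to 32509020 per library. The epithelial markers EPCAM, CDH1, KRT8, KRT18, KRT19 and CLDN4 were each at 95.03 CPM or more in every library, while VIL1 was at 0.335 CPM or less. Summed over the 7 epithelial markers, levels ran from 3537 to 3785 CPM in DMSO and from 4299 to 4808 CPM in MANIO. The 4 leukocyte markers summed to 0.254 CPM or less in every library and the 3 endothelial markers to 1.10 CPM or less. Of 4 fibroblast markers, COL1A1 was at 21.1 to 46.6 CPM and COL1A2, COL3A1 and DCN were each at 0.168 CPM or less. The list summed to 21.1 to 26.1 CPM in DMSO and to 39.1 to 46.7 CPM in MANIO. The part of these marker differences in the results below was not tested. DMSO replicate 1 had 7.48% of its counts in mitochondrially encoded genes, against 4.82% to 5.21% in the other DMSO libraries and 6.70% to 7.62% in MANIO. Without that library all 5 members were still called, with an adjusted p of at most 0.0002 in edgeR's quasi-likelihood test. CDKN1A, the p21 gene and a standard readout of p53 activity, went from 260 ± 24.0 to 1402 ± 97.1 CPM (SD, n = 4 each).

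Promoter sequence is shown for BTG2, BTG1 and TOB1, because these 3 genes had the largest fold changes of the family. Windows of 250 bases before and 50 bases after the RefSeq start (GRCh38.p14) were searched on both strands for short motifs. The bases printed for BTG2 and BTG1 end where the gene begins in GENCODE. Those for TOB1 lie inside the annotated gene, between exons, and end at its downstream RefSeq start, where a GENCODE exon begins. Capitals mark the CCAAT motif, the Sp1-type core GGGCGG or the forkhead core TGTTTAC, on either strand.
BTG2, plus strand, chr1:203305269-203305490: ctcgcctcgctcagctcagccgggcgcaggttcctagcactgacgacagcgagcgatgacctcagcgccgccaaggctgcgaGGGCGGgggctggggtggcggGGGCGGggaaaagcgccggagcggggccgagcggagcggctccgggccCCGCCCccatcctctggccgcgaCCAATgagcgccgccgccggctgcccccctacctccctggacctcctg
BTG1, minus strand, chr12:92145898-92146096: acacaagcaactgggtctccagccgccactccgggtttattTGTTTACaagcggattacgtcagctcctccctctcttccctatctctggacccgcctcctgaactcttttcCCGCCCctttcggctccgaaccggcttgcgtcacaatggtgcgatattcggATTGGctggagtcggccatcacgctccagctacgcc
TOB1, minus strand, chr17:50866355-50866604: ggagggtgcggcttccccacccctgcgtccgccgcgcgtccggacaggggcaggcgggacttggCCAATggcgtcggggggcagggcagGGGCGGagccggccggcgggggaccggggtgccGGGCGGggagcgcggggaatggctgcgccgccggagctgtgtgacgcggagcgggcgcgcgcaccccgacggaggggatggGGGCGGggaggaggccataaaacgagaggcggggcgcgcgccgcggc

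CCAAT was found in the windows of BTG2, BTG1 and TOB1, and in 34.6% of 35116 RefSeq windows of the same length. GGGCGG was found for all 5 members and in 45.0% of all windows. TATAAA was found in the window of BTG1, 33 bases before its RefSeq start and past the bases printed, and in 11.5% of all windows. TGTTTAC was found in BTG1 and in 3.42% of all windows. TOB1 has 2 RefSeq windows, and the farther upstream one, which starts at 50867978, held none of these motifs. Of 4 further motifs searched, none was in a member's window. These were the cAMP-response core TGACGTCA (1.85% of all windows), the AP-1 core TGANTCA (7.71%), the E-box CACGTG (7.26%) and, among cell cycle elements, TTTGAA (15.2%).

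A pair of p53 half-sites, with at most 1 base between them and their fixed C and G in place, was scored by how many of its 20 letters fit the published consensus. The best pairs fitted 14 letters for BTG3, TOB2 and the downstream window of TOB1, a score reached by 42.7% of all windows. Those of BTG3 and TOB2 overlap an exon. The best in the BTG2 window fitted 11 letters, as 80.4% of all windows did or exceeded, and lies in an exon. The BTG1 window and the farther upstream TOB1 window held no pair with its fixed letters. These counts describe the letters in these windows only. In the best BTG2 pair, shown because BTG2 had the largest fold change, capitals mark the half-sites.
BTG2 pair, plus strand, capitals at chr1:203305510-203305529: aaAGTCCGGGCAGAGCCCGAGCag

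All 5 members rose in the MANIO libraries, by 1.37-fold for TOB2 to 4.203-fold for BTG2. Over all tested genes, edgeR's quasi-likelihood test called 54.6%, with 27.8% higher. The 4 MANIO libraries lay above the 4 DMSO libraries for each of the 5 members, as they did for 24.7% of tested genes. Groups that did not overlap in either direction were seen for 48.3% of tested genes. At least 1.5-fold rises were called for BTG2, TOB1 and BTG1, 3 of the 5, and for 11.1% of tested genes. At least 2-fold rises were called for BTG2 and TOB1, against 4.53% of tested genes, and BTG2 alone passed 4-fold, as did 0.878% of tested genes. TOB1 passed the 2-fold line only narrowly, at 2.01-fold. Over the 13 alternative fits its log2 fold change was 0.93 to 1.09, on both sides of that line. The median log2 fold change was 0.83 over the 5 members and 0.0043 over all tested genes. RNA from whole cultures cannot tell fewer cells with a transcript from less of it per cell.

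**Figure D1:**
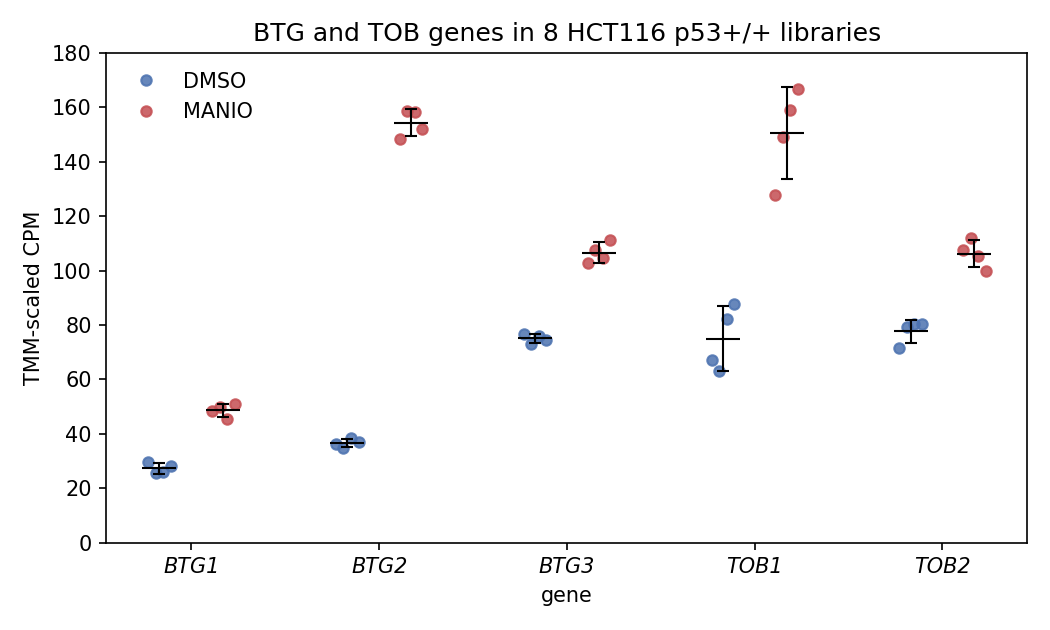
TMM-scaled CPM of the 5 genes (y axis) in each library, with 4 DMSO libraries in blue and 4 MANIO libraries in red. Bars are the mean and SD. The MANIO points lie above the DMSO points for every gene, with the widest gap for BTG2 and the widest spread within groups for TOB1.

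BTG2, first known as an immediate early gene, spans 4.11 kb on chromosome 1 (203305491 to 203309602, plus strand, ENSG00000159388). Its level was 36.3, 34.9, 38.6 and 37.1 CPM in DMSO replicates 1 to 4 and 148, 159, 158 and 152 CPM in MANIO replicates 1 to 4. The lowest MANIO library was thus far above the highest DMSO library, and the libraries of a group lay close together. Group means were 36.7 ± 1.52 and 154 ± 5.05 CPM (SD, n = 4 each). The log2 fold change was 2.07 (SE 0.0541) with an adjusted p of 6.5e-13 in edgeR's quasi-likelihood test. It was the largest of the family and ranked 125th among the 15712 tested genes. No exonic base of BTG2 lies in an exon of another gene.

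BTG1 encodes the closest relative of BTG2 and lies on chromosome 12 (92140278 to 92145897, minus strand, ENSG00000133639). It was at 29.6, 25.4, 26.0 and 28.2 CPM in DMSO replicates 1 to 4, and at 48.5, 49.7, 45.5 and 50.9 CPM in MANIO replicates 1 to 4. The groups did not overlap, and the means were 27.3 ± 1.94 and 48.7 ± 2.31 CPM. Its log2 fold change was 0.83 (SE 0.0644), a 1.78-fold rise, with an adjusted p of 6.2e-08 in edgeR's quasi-likelihood test. Exons of LINC01619 and AC025164.1 cover 17.1% of its exonic bases, and without a stranded kit reads there cannot be assigned to a strand.

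BTG3, also called ANA, encodes a member with a longer tail, and the protein is known to bind the transcription factor E2F1. It lies on chromosome 21 (17593653 to 17612947, minus strand, ENSG00000154640). Levels were 76.6, 73.1, 76.0 and 74.5 CPM in DMSO replicates 1 to 4 and 103, 108, 105 and 111 CPM in MANIO replicates 1 to 4. The rise was small but the libraries of each group were tightly spaced. Means were 75.0 ± 1.59 and 107 ± 3.76 CPM, a log2 fold change of 0.51 (SE 0.0498) with an adjusted p of 7.4e-07 in edgeR's quasi-likelihood test. The antisense gene BTG3-AS1 covers 12.1% of its exonic bases, and, as for BTG1, reads there cannot be assigned to a strand without a stranded kit. BTG3-AS1 had 126 counts in all 8 libraries together and went from 0.301 ± 0.0873 to 0.727 ± 0.251 CPM (log2 fold change 1.24, SE 0.316, adjusted p = 0.0038 in edgeR's quasi-likelihood test).

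TOB1, the transducer of ERBB2 gene, lies on chromosome 17 (50862223 to 50867978, minus strand, ENSG00000141232). It was at 67.0, 62.9, 82.3 and 87.6 CPM in DMSO replicates 1 to 4 and at 128, 149, 159 and 167 CPM in MANIO replicates 1 to 4. The libraries of a group differed more than for any other member, yet the groups did not overlap. The means were 75.0 ± 11.9 and 151 ± 16.9 CPM, a 2.01-fold rise. The log2 fold change was 1.01 with an SE of 0.110, the largest SE of the 5, and the adjusted p was 1.1e-05 in edgeR's quasi-likelihood test. TOB1-AS1, an antisense gene over 11.1% of the exonic bases of TOB1, was at 1.27 ± 0.155 CPM in DMSO and 1.303 ± 0.0909 CPM in MANIO and was not called (log2 fold change 0.04, adjusted p = 0.86 in edgeR's quasi-likelihood test). Its sign turned when DMSO replicate 4 or MANIO replicate 2 was left out. Reads in the bases that TOB1-AS1 shares with TOB1 likewise cannot be assigned to a strand without a stranded kit.

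TOB2, the closest relative of TOB1, lies on chromosome 22 (41433492 to 41447023, minus strand, ENSG00000183864). Levels were 71.5, 79.1, 80.3 and 80.2 CPM in DMSO replicates 1 to 4 and 108, 112, 105 and 99.8 CPM in MANIO replicates 1 to 4. This was the smallest rise of the family, from 77.8 ± 4.24 to 106 ± 5.02 CPM, and the groups did not overlap. Its log2 fold change was 0.45 (SE 0.0567) with an adjusted p of 9.8e-06 in edgeR's quasi-likelihood test. TOB2 ranked 2536th among tested genes by log2 fold change, BTG3 2223rd, BTG1 1004th and TOB1 709th.

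**Figure D2:**
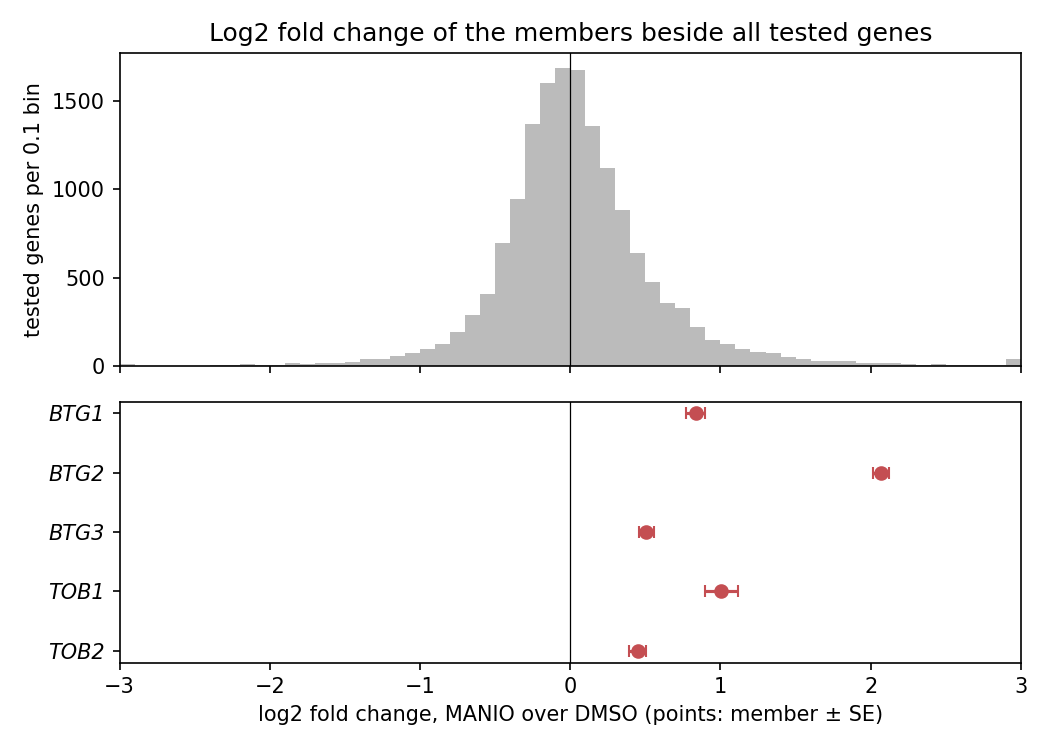
Log2 fold change of MANIO over DMSO (x axis). The upper panel counts all 15712 tested genes in bins of 0.1, with values beyond the axis placed in the end bins, and the lower panel shows each member with its SE. All 5 members lie above 0, from 0.45 for TOB2 to 2.07 for BTG2.

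BTG4, the remaining family gene, which is known from oocytes, had 1 count in MANIO replicate 1 and 0 in each other library. A count of 0 allows up to 3 counts, or 0.0915 to 0.112 CPM depending on the library, counting error only. The pseudogenes BTG3P1 and BTG4P1 had 0 counts, BTG1P1 had 2 and TOB2P1 had 41 over all 8 libraries, so few counts were placed on these copies.

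Within paralogue pairs the rises were unequal. Counts of BTG2 exceeded those of BTG1 1.35-fold in DMSO and 3.17-fold in MANIO, with no correction for length. The log2 ratio of BTG2 to BTG1 was 0.30, 0.46, 0.57 and 0.39 in DMSO replicates 1 to 4 and 1.61, 1.67, 1.80 and 1.58 in MANIO replicates 1 to 4. Every MANIO library was above every DMSO library, by 1.24 on average (SE 0.0750). The log2 ratio of TOB1 to TOB2 was -0.09, -0.33, 0.03 and 0.13 in DMSO replicates 1 to 4 and 0.25, 0.41, 0.59 and 0.74 in MANIO replicates 1 to 4. The MANIO libraries were again all higher, by 0.56 on average (SE 0.146), although MANIO replicate 1 was only slightly above DMSO replicate 4. For each of the 2 pairs the exact two-sided permutation p was 0.0286, the smallest that 70 assignments can give, and 0.0286 after Benjamini-Hochberg adjustment over the 2 pairs. These ratios do not depend on how libraries are scaled.

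**Figure D3:**
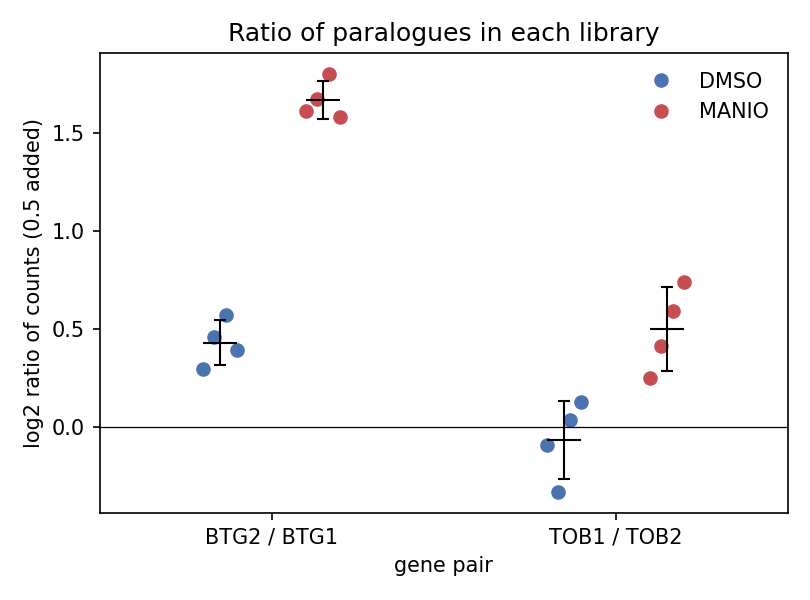
Log2 ratio of counts (y axis, 0.5 added to each count) of BTG2 to BTG1 and of TOB1 to TOB2 in each library, with DMSO in blue, MANIO in red and bars for mean and SD. The BTG2 to BTG1 ratio moved from 0.43 to 1.67 and the TOB1 to TOB2 ratio from -0.06 to 0.50.

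The order of the members by level also differed between groups. Per kb of merged exons, BTG3 (32.5 ± 0.689 CPM per kb) and TOB1 (29.7 ± 4.70) led in DMSO and their ranges overlapped. TOB2 (17.04 ± 0.929), BTG2 (13.3 ± 0.552) and BTG1 (5.62 ± 0.400) followed, each with a range apart from its neighbour's. In MANIO, TOB1 (59.7 ± 6.69 CPM per kb) and BTG2 (56.0 ± 1.83) led with overlapping ranges, followed by BTG3 (46.2 ± 1.63), TOB2 (23.3 ± 1.10) and BTG1 (10.02 ± 0.476), whose ranges did not overlap. On this scale BTG2 thus moved from the fourth to the second place by mean level. Its level was above that of 77.2% of tested genes in DMSO and of 96.1% in MANIO. The order depends on the length used. Without length correction BTG2 had the highest mean in MANIO, 154 CPM against 151 CPM for TOB1, with overlapping ranges. The longest BTG3 transcript has 1485 bases, against 2306 in its merged exons, and the order by longest transcripts is not given here.

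Summed over the 5 members, the level per kb was 94.8, 91.9, 103 and 104 CPM per kb in DMSO replicates 1 to 4 and 183, 198, 198 and 202 in MANIO replicates 1 to 4. The mean sum was 1.99 times as high in MANIO. BTG2 made up 13.6 ± 0.437% of the sum in DMSO and 28.7 ± 0.952% in MANIO. The share of BTG3 was 33.2 ± 1.89% in DMSO and 23.7 ± 0.636% in MANIO, and that of TOB2 was 17.4 ± 1.03% and 11.9 ± 0.900%. TOB1 made up 30.1 ± 3.001% and 30.5 ± 2.21%, a difference well inside the spread between libraries. BTG1 made up 5.74 ± 0.505% and 5.14 ± 0.311%, with overlapping ranges. A share can fall while the gene's own level rises, as for BTG3 and TOB2 here.

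**Figure D4:**
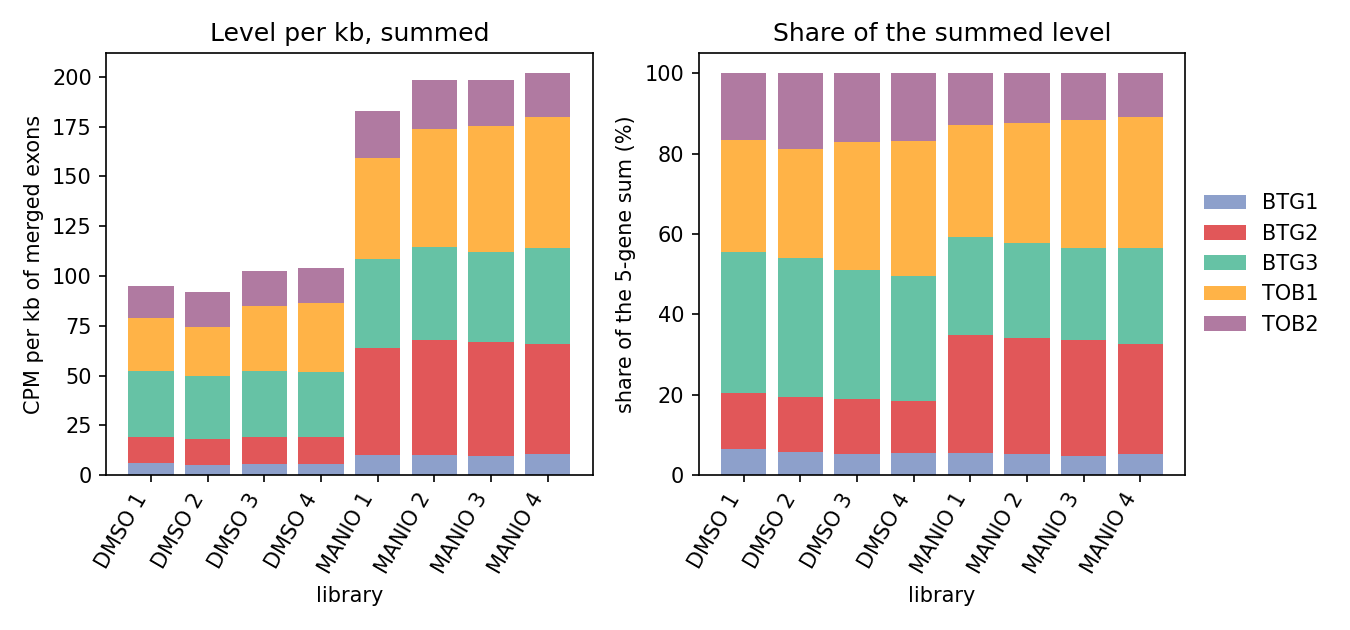
Stacked levels of the 5 genes in CPM per kb of merged exons (left y axis) and the same as percent of their sum (right y axis) for each library. The sum is 91.9 to 104 CPM per kb in DMSO and 183 to 202 in MANIO, and the BTG2 band widens from 13.6% to 28.7% on average.

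The CCR4-NOT complex is the effector of the family. Of its 12 tested genes, 6 fell and the other 6 were not called, and the median log2 fold change was -0.15. The count of higher genes was 0 in edgeR's quasi-likelihood test, also at an unadjusted p under 0.05, and 0 with DESeq2. Over all tested genes 26.8% were called lower. CNOT9 went from 119 ± 8.34 to 94.3 ± 4.27 CPM (-0.34, SE 0.0595). CNOT7, a nuclease bound directly by BTG and TOB proteins, went from 168 ± 10.9 to 138 ± 8.07 CPM (-0.29, SE 0.0596), and CNOT2 from 81.9 ± 1.51 to 69.3 ± 2.52 CPM (-0.24, SE 0.0502). Their adjusted p in edgeR's quasi-likelihood test was 0.00021, 0.00078 and 0.00083. CNOT8, the other nuclease bound by the family, was at 69.7 ± 4.76 and 65.5 ± 2.19 CPM and was not called (-0.09, adjusted p = 0.21 in the same edgeR test; named after its value was seen).

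Of 6 further deadenylase and poly(A) binding protein genes, 1 rose and 1 fell, against 27.8% and 26.8% of all tested genes, with a median log2 fold change of 0.01. PABPC1, the main cytoplasmic poly(A) binding protein gene, rose by 0.22 on the log2 scale from 2049 ± 22.1 CPM. PAN2, a deadenylase gene, had a log2 fold change of -0.29, and PARN one of -0.10, which did not pass. Of 11 decapping and decay genes, 2 rose and 3 fell, against the same 27.8% and 26.8%, with a median of -0.13. DCP1B, a cofactor gene of the decapping enzyme, went from 19.1 ± 0.563 to 31.4 ± 2.32 CPM (0.72), while PATL1 (-0.20) and the helicase gene DDX6 (-0.23) fell. With upper-quartile scaling 8 of these 11 were called, and 3 without DMSO replicate 4.

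Adaptors bring CCR4-NOT to chosen messenger RNAs. Of 15 listed genes, 14 were found in the count table and 13 were tested. CPEB1 had 0 counts in all libraries, and no entry was found under the symbol ZFP36. Of those tested, 6 rose, 3 fell and 4 were not called, where 27.8% of all tested genes rose and 26.8% fell. The list's median log2 fold change was 0.08. NANOS1, a low-level adaptor gene, went from 1.39 ± 0.120 to 3.69 ± 0.502 CPM (1.41, SE 0.141). RC3H1, the roquin gene, rose by 0.47 on the log2 scale and ZFP36L1, which encodes a binder of AU-rich elements, by 0.34. Their adjusted p in edgeR's quasi-likelihood test was 9.2e-07, 0.00011 and 7.6e-05.

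Of 8 arginine methyltransferase genes, 3 fell and 5 were not called, where 26.8% of all tested genes fell. The list's median log2 fold change was -0.10. The count of higher genes was 0 by edgeR's quasi-likelihood test, at an unadjusted p under 0.05 as well, and 0 by DESeq2. PRMT1, the partner of BTG1 and BTG2, went from 383 ± 22.6 to 272 ± 19.3 CPM (-0.49, SE 0.0618), and CARM1 from 124 ± 12.2 to 85.5 ± 6.35 CPM (-0.53, SE 0.0729). In each case all MANIO libraries lay below all DMSO libraries, where 48.3% of tested genes had groups apart in either direction. The adjusted p was 9.3e-06 and 2.1e-05 in edgeR's quasi-likelihood test. PRMT5 had a log2 fold change of -0.14. Its call was lost when DMSO replicate 2 or 3 or MANIO replicate 2 or 3 was omitted.

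Among 12 genes for upstream regulators and binding partners, 5 rose and 3 fell, against 27.8% and 26.8% of all tested genes, and DESeq2 called 4 higher and 3 lower. The median log2 fold change was 0.16. SMAD5, a transducer of bone morphogenetic protein signals that TOB1 is known to bind, rose by 0.45 (SE 0.0798) from 101 ± 10.7 CPM. SMAD1, in the same list, was called lower (-0.22, adjusted p = 0.0055 in edgeR's quasi-likelihood test), and SMAD4 was not called (-0.11). SMAD1 and SMAD4 were named after their values were seen. FOXO3, a forkhead factor known to induce BTG1, rose by 0.31 (SE 0.0568) from 47.1 ± 2.38 CPM. ERBB2, the receptor for which TOB1 was named, had a log2 fold change of -0.13 (adjusted p = 0.036 in edgeR's quasi-likelihood test; named after its value was seen).

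Of 9 tested G1 genes linked to the family, 6 rose, 2 fell and 1 was not called (27.8% and 26.8% of all tested genes rose and fell), while CCND2, with 3 counts in all, was not tested. The list's median log2 fold change was 0.42. CDKN1A rose by 2.43. CCND1, the cyclin D1 gene, which BTG2 and TOB1 are known to repress, went from 511 ± 28.0 to 861 ± 28.98 CPM (0.75, SE 0.0556), and the cyclin E1 gene CCNE1 rose by 0.48. E2F1 (-0.33) and CDK4 (-0.31) fell, both picked out with their values in view. For these 5 named genes, picked by small p or with values in view, the ranges of MANIO and DMSO did not overlap. The same held for 7 of the 9 tested genes of the list and for 48.3% of all tested genes.

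**Figure D5:**
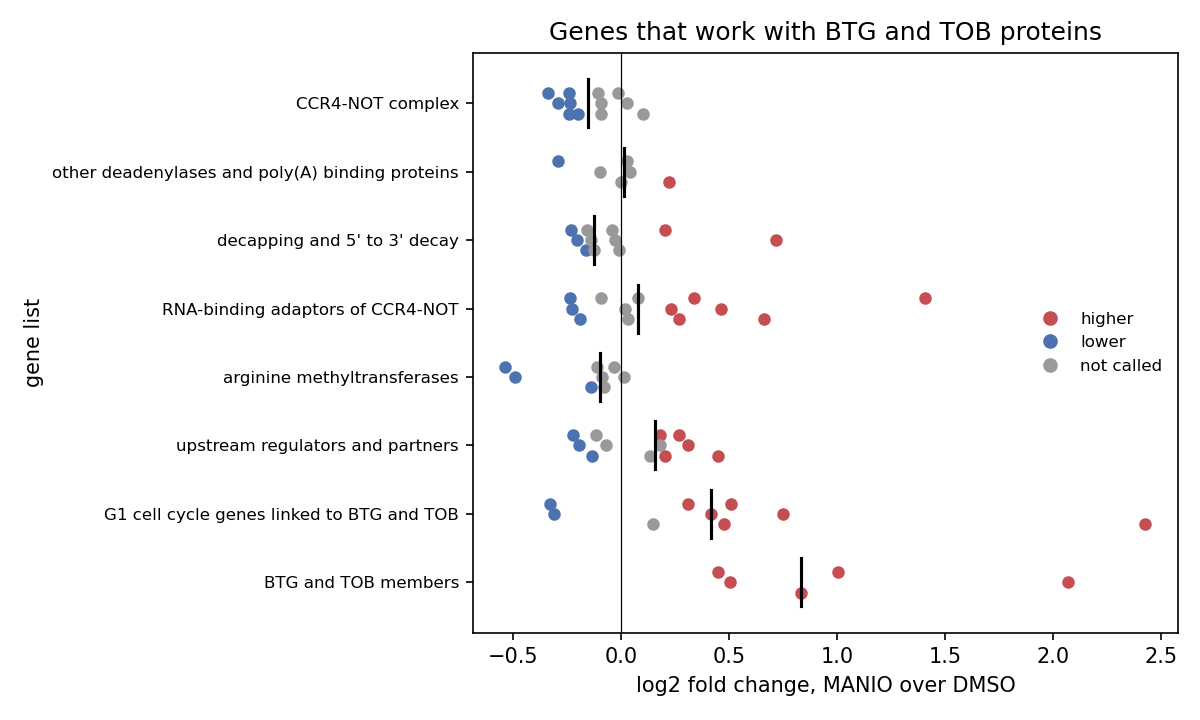
Log2 fold change of MANIO over DMSO (x axis) for each tested gene of 7 partner lists and for the 5 members (rows), in red where called higher, blue where called lower and grey where not called. Black bars are medians, which run from -0.15 for the CCR4-NOT complex to 0.83 for the members.

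The genes closest to each member in profile were found by the root-mean-square difference of log2 CPM over the 8 libraries, each gene centred on its own mean, among 12097 other genes. This measure is mostly set by the size of the group difference. For BTG2 they included SULF2 (0.0782) and TNFRSF10C (0.0909), with log2 fold changes of 2.17 and 1.92. For BTG1 they were MTURN (0.0366), FAM122C (0.0499) and COL4A5 (0.0585), and for BTG3 they were RFX7 (0.0336), WDR26 (0.0343) and ZNF121 (0.0367). TOB1 was closest to CDKN2B (0.0790), GOLGA8A (0.0810) and HIST1H3E (0.0907), of which GOLGA8A and HIST1H3E have near-identical copies, so that their counts are uncertain. TOB2 was closest to MLPH (0.0261), FAM53C (0.0351) and GRN (0.0386). Between members, BTG3 and TOB2 were the most alike (0.0931) and BTG2 and TOB2 the least (0.813).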

How the data were processed

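RNA was measured in 8 cultures of HCT116 p53+/+ cells, 4 with MANIO and 4 with DMSO. The authors deposited raw read counts for 58302 Ensembl genes, as the whole-number values and the column names show, and no other column of sample values was present. Per the submitters' processing notes, FastQC 1.3, STAR 2.5.3a, HTSeq, DESeq2 and build GRCh38 were used, with no role stated. Not given in the sources used here were annotation release, strand setting and the treatment of multi-mapping reads.

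Counts were fitted in R 4.3.3 with edgeR 4.0.16 (filterByExpr, TMM scaling, robust quasi-likelihood F test on group alone), which tested 15712 genes. P-values were adjusted by Benjamini-Hochberg over all of them, and adjusted p under 0.05 was called. CPM, counts per 1e6 of the TMM-scaled library, give levels. SEs come from the F statistic. Paralogue ratios were tested by exact two-sided permutation in SciPy 1.17.1. Exonic lengths and positions came from GENCODE release 29 on GRCh38, promoter windows from RefSeq (GRCh38.p14).

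The members and the 7 partner lists were chosen with earlier results of these data known. Genes named are the members, table entries with BTG or TOB names, the 3 smallest p of each list, CDKN1A and the 3 closest profiles per member, and a few results that this rule covers are not reported here. The closest profiles were sought among genes with an average log2 CPM of at least 1. Others were chosen after their values were seen. Alternatives were RLE and upper-quartile scaling, DESeq2 1.42.0, no filter, a replicate block, leaving out each library and, for ratios and shares, other pseudocounts or lengths. Tested on simulated data of the same design with 15327 genes tested, the fit recovered 91.8% of genes changed 2-fold. It recovered 66% of those changed 1.5-fold and 27.7% of those changed 1.2-fold. The simulation changed a far smaller part of the genes than the 54.6% called here, so these rates do not carry over directly. Within groups, chi-square per degree of freedom between pairs of libraries was 3.60 to 24.4, so no library was a copy of another. The highest values, 20.7 to 24.4, were those of DMSO replicate 1 with the other DMSO libraries. Among those others the values were 3.60 to 10.3.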

Additional observations from a re-analysis of the deposited data

Results flagged for a closer look

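In 100 sets of 4 libraries, 6 held a library far from the other 3 by Dixon's criterion, which is set at 1 in 20. The sets reuse the same 8 libraries and are not independent, so this count cannot be set against chance. Among the members this was TOB2, at 71.5 CPM in DMSO replicate 1 against 79.1 to 80.3 CPM in the other DMSO libraries. The same library was low for CCND1 (469 CPM against 522 to 529) and high for RFX7 (42.5 CPM against 38.9 to 39.5). MANIO replicate 4 was low for CDKN1A (1257 CPM against 1445 to 1462) and for FAM53C (97.2 CPM against 106 to 107). DMSO replicate 4 was low for PRMT1 (349 CPM against 391 to 396).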

How the results depend on the processing

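All 5 members stayed higher and called in each of 13 alternative fits, with log2 fold changes of 2.05 to 2.09 for BTG2, 0.93 to 1.09 for TOB1, 0.80 to 0.87 for BTG1, 0.49 to 0.52 for BTG3 and 0.41 to 0.48 for TOB2. With 1 library left out, the paralogue differences ranged from 1.19 to 1.28 for BTG2 against BTG1 and from 0.47 to 0.65 for TOB1 against TOB2. Their exact permutation p was 0.0571 in each of these fits, the smallest that 35 assignments can give. Pairing libraries by replicate number gave differences of 1.24 and 0.56 with an exact sign-flip p of 0.125, the smallest possible with 4 pairs. Same-number libraries correlated at 0.0385 to 0.163 in their deviations, over 0.1 in 2 of 4 pairs. Of the 8 samples, 2 correlated best with their own number. These values cannot decide whether same-number samples were handled together. With the replicate block the SE of the TOB1 log2 fold change was 0.0618, against 0.110 without it. The replicate block moved the count of called genes from 8574 to 8845. For decapping and decay genes 8 were called with upper-quartile scaling and 3 to 7 with 1 library left out, against 5, and the cause was not tested. The change in the BTG2 share of the family sum was 13.5 points with longest-transcript lengths, against 15.1. That of TOB2 was -4.01 points with those lengths and -7.91 without length correction, against -5.43, and that of BTG3 was -6.94 without length correction, against -9.51. The small TOB1 share difference of 0.399 points ranged from -0.588 to 1.51 with 1 library left out. TOB1-AS1, never called, had log2 fold changes of -0.0134 to 0.116 with 1 library left out, the lowest without DMSO replicate 4 and -0.0104 without MANIO replicate 2.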

Other observations

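The nearest tested gene on each side of every member was looked up in GENCODE, a choice made after the data were seen. Of these 10 genes, 1 rose, 4 fell and 5 were not called by edgeR's quasi-likelihood test, which called 27.8% of all tested genes higher and 26.8% lower. The riser was LUC7L3 (log2 fold change 0.23), 106 kb from TOB1. TEF (-0.41) and PHF5A (-0.33), which lie 34.2 and 12.7 kb from TOB2, fell, as did ADORA1 (-0.40) near BTG2 and ATP2B1 (-0.39), the nearest tested gene on its side of BTG1 at 2431 kb. CXADR, whose annotated end lies 0.1 kb from BTG3, had a log2 fold change of -0.18 (adjusted p = 0.0645 in edgeR's quasi-likelihood test), while BTG3 itself rose.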
